A study of Mus musculus with 2 samples.

Results

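Weak regions of accessible chromatin in mouse thymus were chosen from the deposited DNase I-seq peak lists, of which each sample has a looser and a strict one. A weak region was a merged looser peak found in both samples that overlapped no strict peak of either sample. There were 8006 weak regions, 11.4% of the 70325 regions shared by the looser lists. Of the remainder, 51574 overlapped a strict peak of both samples and 10745 a strict peak of 1 sample alone. The weak regions were set beside these 10745 regions and beside 51712 shared strict regions, which were strict peaks found in both samples and merged in the same way. Because the lists chose the members, and because the series holds 1 group, all comparisons below are descriptions without tests.

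The submitters measured accessibility in whole thymus of male B6CASTF1/J mice at 2 months of age, untreated as far as the labels say. B6CASTF1/J is the hybrid of the C57BL/6J and CAST/EiJ strains, and reads were placed on the mm10 assembly of C57BL/6J. The 2 samples are replicates 1 and 2; their labels number a separate animal for each but carry 1 donor identifier, and the differences between them may include technical ones. Most cells of a young thymus are T cell precursors, so that in whole tissue fewer cells of a type and less accessible chromatin per cell cannot be told apart.

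DNase I cuts DNA where nucleosomes are absent or loose, which marks promoters, enhancers and insulators. A bound protein shields its site, and the short stretch of few cuts that remains within an accessible region is called a footprint. In the thymus, RUNX and ETS factors and E proteins act at enhancers of T cell precursors, PU.1 acts in myeloid cells, B cells and the earliest T cell precursors, and CTCF binds insulators and loop anchors in all cells.

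Sequences of 7 weak regions are given first, since motif content and footprints are what the results below turn on. Each is the central 200 bp of a weak region in the GRCm38 reference, plus strand, 5′ to 3′, with the motif match in capitals. The first 6 are weak regions outside promoters and exons in which the match overlapped a footprint of both replicates, taken in order of score for each motif, and the last lies at the promoter of Gzma, which encodes granzyme A of cytotoxic lymphocytes.
PU.1, chr12:102689868-102690067: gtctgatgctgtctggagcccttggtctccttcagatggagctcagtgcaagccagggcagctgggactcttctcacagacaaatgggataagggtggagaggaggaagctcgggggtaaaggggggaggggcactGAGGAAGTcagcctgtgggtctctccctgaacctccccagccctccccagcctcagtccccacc
PU.1, chr16:95189183-95189382: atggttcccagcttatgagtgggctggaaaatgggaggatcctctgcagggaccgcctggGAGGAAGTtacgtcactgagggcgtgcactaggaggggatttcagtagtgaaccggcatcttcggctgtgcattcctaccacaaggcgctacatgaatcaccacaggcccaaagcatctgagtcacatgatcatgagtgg
CTCF, chr7:141481467-141481666: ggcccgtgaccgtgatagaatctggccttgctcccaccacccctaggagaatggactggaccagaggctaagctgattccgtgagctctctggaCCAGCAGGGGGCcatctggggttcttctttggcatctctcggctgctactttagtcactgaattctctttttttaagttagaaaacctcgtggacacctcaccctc
CTCF, chr10:80175587-80175786: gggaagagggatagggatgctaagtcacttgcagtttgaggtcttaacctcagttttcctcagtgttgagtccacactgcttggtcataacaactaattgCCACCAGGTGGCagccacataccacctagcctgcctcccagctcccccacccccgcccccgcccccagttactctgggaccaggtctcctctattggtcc
ETS, chr10:59936640-59936839: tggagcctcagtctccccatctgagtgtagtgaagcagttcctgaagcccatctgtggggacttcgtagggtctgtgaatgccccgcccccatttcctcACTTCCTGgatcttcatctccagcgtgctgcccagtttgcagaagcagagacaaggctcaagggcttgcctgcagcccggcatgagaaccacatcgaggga
RUNX, chr4:150921297-150921496: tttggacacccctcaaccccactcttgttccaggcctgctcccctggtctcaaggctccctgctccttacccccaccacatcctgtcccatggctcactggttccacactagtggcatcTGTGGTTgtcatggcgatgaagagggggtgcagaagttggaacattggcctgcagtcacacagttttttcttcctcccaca
RUNX at Gzma, chr13:113101021-113101220: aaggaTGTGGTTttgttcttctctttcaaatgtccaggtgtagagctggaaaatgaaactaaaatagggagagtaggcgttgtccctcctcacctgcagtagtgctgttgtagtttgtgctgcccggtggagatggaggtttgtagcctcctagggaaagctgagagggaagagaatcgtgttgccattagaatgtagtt

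The CTCF match at chr10:80175587-80175786 lay wholly inside its footprints, which were 24 bp wide in replicate 1 and 23 bp in replicate 2. The PU.1 region on chromosome 16 scored near the median of weak regions, at 0.496 in replicate 1 and 0.438 in replicate 2, and its match overlapped footprints of 9 bp in replicate 1 and 11 bp in replicate 2, both of which began at base 95189247. The PU.1 match on chromosome 12 touched footprints of 18 and 20 bp by their last base, 102690004, in both replicates. The ETS match overlapped a footprint of 10 bp in replicate 1. In replicate 2 it touched only the last base, 59936739, of a footprint of 21 bp. The RUNX match, in an intron of Tnfrsf9, which encodes the T cell activation receptor 4-1BB, coincided with a footprint of 7 bp in replicate 1 and overlapped one of 16 bp in replicate 2. The RUNX match at Gzma overlapped no footprint of either replicate.

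Weak regions had low scores in both replicates. The score is the submitters' signal value. A weak region or a region strict in 1 replicate took its highest looser peak, and a shared strict region its highest strict peak. Scores of the same place were not compared between the lists. The median weak region scored 0.452 in replicate 1 and 0.419 in replicate 2, which gave 0.436 ± 0.0230 (SD, n = 2). Regions strict in 1 replicate had medians of 0.585 in replicate 1 and 0.596 in replicate 2, and shared strict regions had 1.94 in replicate 1 and 1.76 in replicate 2. All scores under 1 were whole multiples of a step of 0.00741 in replicate 1 and 0.00608 in replicate 2, within a tolerance of 0.02 steps, so that a median weak region held 61 steps in replicate 1 and 69 in replicate 2, against 262 in replicate 1 and 289 in replicate 2 for shared strict regions. The number of reads behind a step is not stated.

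The scores overlapped between the classes. The middle 50% of weak regions lay between 0.341 and 0.607 in replicate 1, against 1.04 to 4.29 for shared strict regions. Only 1 weak region exceeded the strict median in both replicates, while 346 shared strict regions (0.669%) lay below the weak median in both. In the deposited tracks of the false discovery rate (FDR) of the cut rate, every shared strict region held a position at or under 0.001 in both replicates, and the lowest FDR in a weak region had a median of 0.00620 in replicate 1 and 0.00638 in replicate 2. Some weak regions passed that value without a strict peak, 888 in replicate 1 and 859 in replicate 2, but only 125 of the 8006 weak regions (1.56%, 95% Wilson interval 1.31 to 1.86%) did so in both replicates.

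**Figure D1:**
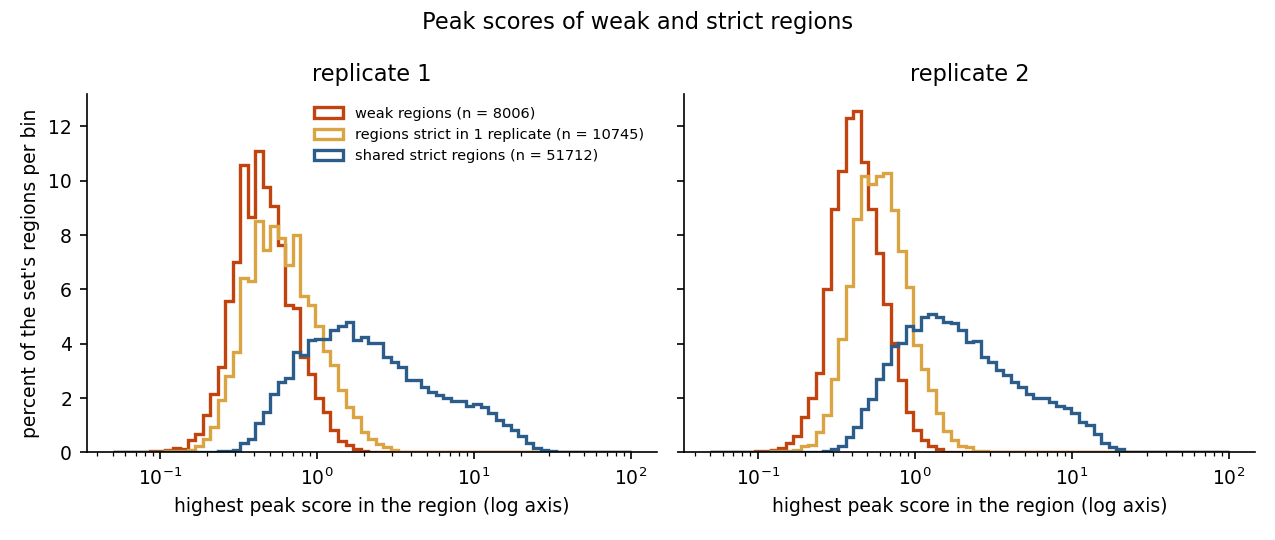
Distribution of the highest peak score per region (log axis) in replicate 1 and replicate 2, as a percent of each set, for weak regions, regions strict in 1 replicate and shared strict regions. The weak medians of 0.452 and 0.419 sit below those of shared strict regions, 1.94 and 1.76, and the tails overlap. Scores of shared strict regions come from the strict lists, and the others from the looser lists.

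The replicates ranked the weak regions alike within a narrow range. Over the 8006 weak regions, which share their libraries and were chosen to be low in both, Pearson's r of log2 scores was 0.854 and Spearman's rho was 0.839. Both were higher in shared strict regions (r 0.944, rho 0.928) and lower in regions strict in 1 replicate (r 0.564, rho 0.540). Subtracting the log2 score of replicate 1 left a median of -0.10 and an SD of 0.33 for weak regions, against a median of -0.22 and an SD of 0.46 for shared strict regions. Regions strict in 1 replicate had an SD of 0.65. They were chosen for a strict peak in 1 replicate alone, so that a larger difference and a lower correlation were favoured by the rule.

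The regions on either side of the boundary show what was left out of the strict lists. The highest weak region, at chr11:89065445-89065620 near the antisense gene Dgkeos, scored 2.04 in replicate 1 and 2.55 in replicate 2, and 87.5% of its central window was repeat-masked. The second lay in an intron of Tg, the thyroglobulin gene (2.24 in replicate 1 and 1.36 in replicate 2), and the fourth in an intron of Runx1, a T cell transcription factor (1.90 in replicate 1 and 1.43 in replicate 2). Others of the highest 10 lay in an intron at Tnfrsf9 (1.93 in replicate 1 and 1.20 in replicate 2) and near a processed pseudogene on chromosome 18 (1.97 in replicate 1 and 1.29 in replicate 2). The remaining 5 of the highest 10 had mean scores of 1.52 to 1.73 and lay on chromosomes 7, 9, 13, 17 and 19, each nearest to the TSS of a non-coding transcript. The 5 lowest weak regions had mean scores of 0.0631 to 0.104. A pair of them was on chromosome Y, another pair at copies of the ribosomal RNA genes Rn5s and n-R5s108 on chromosome 8, and the fifth on chromosome X, and 4 of these 5 were 46.5 to 100% repeat-masked. The 5 lowest shared strict regions overlapped that range, at 0.0779 to 0.153, and 2 of them lay on chromosome Y.

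Weak regions lay farther from genes' starts than shared strict regions. Of the weak regions, 23.1% (95% Wilson interval 22.1 to 24.0%) were centred no further than 1000 bp from an annotated transcription start (TSS), against 41.8% (41.3 to 42.2%) of shared strict regions and 5.88% of the genome's bases. Introns beyond that distance held 41.1% of weak regions, 29.0% of shared strict regions and 37.3% of the genome. Intergenic sequence held 29.9% of weak regions, 24.9% of shared strict regions and 53.7% of the genome, and exons held 5.95% of weak regions, 4.40% of shared strict regions and 3.09% of the genome. The median distance to a TSS was 5480 bp for weak regions and 2158 bp for shared strict regions. Regions strict in 1 replicate resembled the weak ones, with 21.7% at a TSS and a median distance of 5520 bp.

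**Figure D2:**
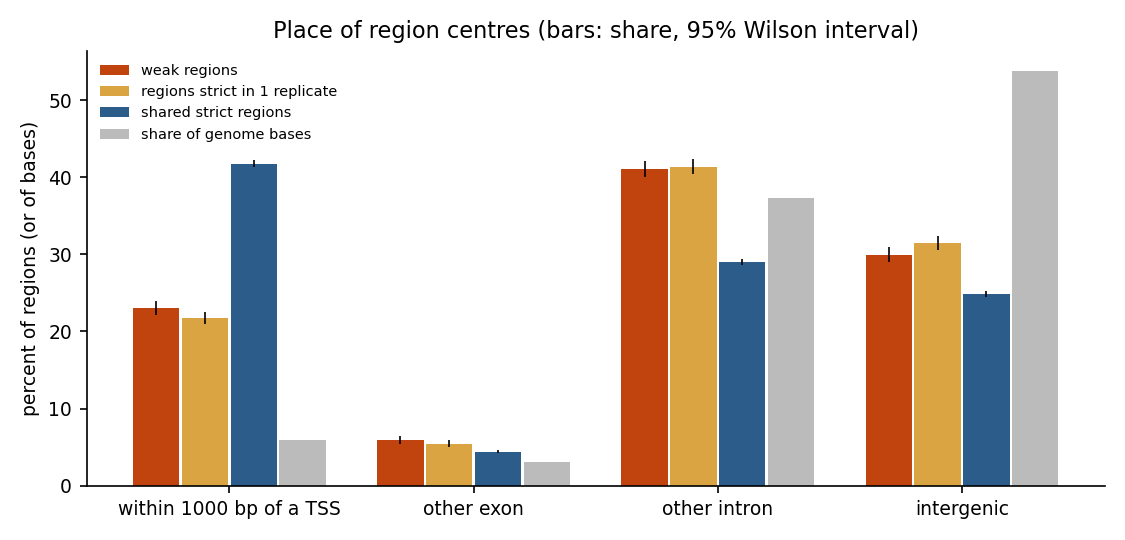
Percent of region centres near a TSS, in other exons, in other introns and in intergenic sequence for weak regions, regions strict in 1 replicate and shared strict regions, beside the share of genome bases. The weak share near a TSS was 23.1%, against 41.8% of shared strict regions and 5.88% of the genome, with 95% Wilson intervals as error bars.

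The lower share at promoters moved with score among strict regions too. In the lowest quartile of shared strict regions by score, with a median of 0.757, 25.8% lay near a TSS, while in the highest quartile, with a median of 7.13, 76.4% did. Of the 1846 weak regions near a TSS, 58.5% (56.2 to 60.7%) had a strict peak of either replicate within 1000 bp, against 31.0% (29.9 to 32.2%) of the 6160 weak regions farther away. Protein-coding TSSs were the nearest for 76.9% of the weak promoter regions and 85.3% of the strict ones, and lincRNA TSSs for 5.96% of the weak and 4.15% of the strict. The X chromosome held 2.31% of weak regions, 2.43% of shared strict regions and 6.28% of the genome. Chromosome 11, the chromosome of Ikzf1 among many others, held 7.06% of weak regions, 8.20% of shared strict regions and 4.48% of the genome.

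A looser peak without a strict peak of its own replicate was found again in the other replicate about as often as not. Of 29271 such peaks of replicate 1, 28.8% (28.3 to 29.3%) overlapped only a looser peak of replicate 2, 20.1% a strict peak and 51.1% no peak. Of 33504 such peaks of replicate 2, 25.8% (25.3 to 26.3%) overlapped only a looser peak of replicate 1, 17.2% a strict peak and 19108 of them no peak. Windows of equal width 2000 bp to either side were kept only where they overlapped no peak of the same replicate, which favours windows without peaks. Of these windows, 98.3% for replicate 1 and 97.9% for replicate 2 overlapped no peak of the other replicate. The chance of being found again moved with score. Among peaks in the highest quartile of these scores, 40.1% of replicate 1 and 31.9% of replicate 2 had no peak in the other replicate, while in the lowest quartile 68.8% of replicate 1 and 81.5% of replicate 2 had none.

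Footprints were found in most weak regions in at least 1 replicate, but at the same place in both replicates in a minority. The authors called footprints per sample from the FDR tracks and alignments, and a footprint counted when it lay wholly inside the region. Of the weak regions, 50.5% (49.4 to 51.6%) held a footprint in both replicates, against 69.3% of regions strict in 1 replicate and 91.9% of shared strict regions. Footprints of the replicates overlapped each other in 26.5% (25.5 to 27.4%) of weak regions, 46.9% of regions strict in 1 replicate and 85.4% of shared strict regions. No footprint of either replicate was found in 12.9% of weak regions and 2.89% of shared strict regions. A weak region held on average 1.10 footprints in replicate 1 and 1.26 in replicate 2, while a shared strict region held 3.64 in replicate 1 and 3.72 in replicate 2. The footprints of weak regions were short, with a median width of 8 bp in both replicates, against 11 bp in replicate 1 and 12 bp in replicate 2 for shared strict regions.

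With equal windows the order was the same. A footprint lay in the central 200 bp in both replicates in 48.3% (47.2 to 49.4%) of weak regions, 62.6% of regions strict in 1 replicate and 89.3% of shared strict regions. The windows beside weak regions had one in 0.256%, but they were chosen to overlap no peak of either replicate, so that a low share was built in. Weak regions away from TSSs had such a footprint in 50.1% of cases, and weak regions at a TSS in 42.2%. The share climbed with score in weak and in shared strict regions, while in regions strict in 1 replicate it climbed to 71.3% between mean scores of 0.6 and 0.8 and stood at 70.6 to 74.2% above that. Between 0.5 and 0.6, it was 64.0% (61.2 to 66.6%) in 1199 weak regions, 64.8% (62.6 to 66.9%) in 1850 regions strict in 1 replicate and 76.1% (74.1 to 78.1%) in 1743 shared strict regions. Between 0.3 and 0.4, it was 38.4% (36.4 to 40.5%) in weak regions and 57.7% (51.7 to 63.4%) in shared strict regions. Between 0.6 and 0.8, it was 66.0% (63.2 to 68.7%) in weak regions, 71.3% (69.6 to 73.1%) in regions strict in 1 replicate and 80.0% (78.8 to 81.1%) in shared strict regions. In the 7 score bins that weak regions fill, their share was below that of both other classes. The intervals of weak and shared strict regions stood apart in all 7, and those of weak regions and regions strict in 1 replicate only between 0.6 and 0.8.

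**Figure D3:**
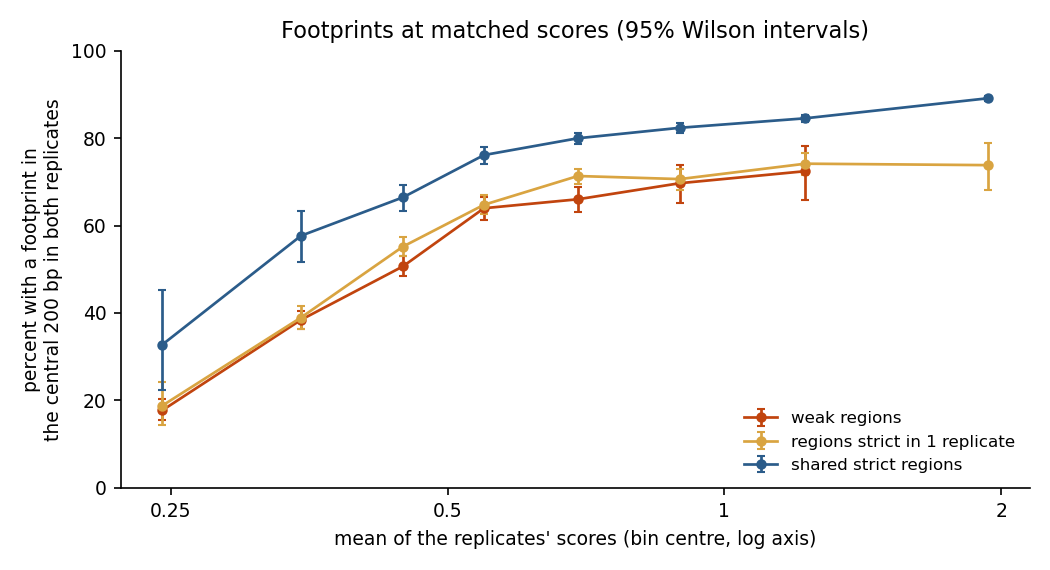
Percent of regions with a footprint in the central 200 bp in both replicates, against the mean of the replicates' scores (log axis), for weak regions, regions strict in 1 replicate and shared strict regions, with 95% Wilson intervals. Between 0.5 and 0.6 the shares were 64.0% of weak regions, 64.8% of regions strict in 1 replicate and 76.1% of shared strict regions. Shared strict regions are binned by strict peak scores, and the others by looser peak scores.

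The sequence of weak regions lay between that of shared strict regions and that of the surroundings. In the central 200 bp, GC content averaged 52.9% in weak regions, 56.7% in shared strict regions and 44.7% in windows 2000 bp beside the weak regions. Weak regions held 4.43 CpG dinucleotides on average, against 8.46 in shared strict regions and 2.15 in the windows. Outside promoters the classes were closer, with a GC content of 51.9% in weak and 52.3% in shared strict regions. At promoters, which in many genes are CpG islands, weak regions held 7.64 CpGs and shared strict regions 14.4. Repeat-masked bases made up 16.4% of weak regions, 10.5% of shared strict regions and 26.6% of the windows, and 10.6% of weak regions were repeats for more than 50% of the window, against 4.47% of shared strict regions.

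Away from promoters, weak and shared strict regions differed in motif matches mainly at CTCF and PU.1. Among regions over 1000 bp from a TSS, where promoter sequence does not enter, CTCF (searched as a consensus of 12 bases) matched 2.52% (2.15 to 2.94%) of weak regions, 6.60% (6.09 to 7.15%) of regions strict in 1 replicate, 13.3% (12.9 to 13.7%) of shared strict regions and 0.0390% of the windows beside weak regions. PU.1, searched as GAGGAAGT, went the other way. It matched 5.16% (4.64 to 5.74%) of weak regions, 3.70% (3.32 to 4.12%) of regions strict in 1 replicate, 3.72% (3.51 to 3.94%) of shared strict regions and 1.06% of the windows. The looser peaks that lacked a strict peak in their own replicate, whether or not the other replicate had them as a looser or strict peak, matched PU.1 in 3.64% of cases in replicate 1 and 3.89% in replicate 2, near the shared strict regions. Of 29 motifs, 26 had Wilson intervals in weak and shared strict regions that overlapped. The intervals, which cover counting error only, stood apart for CTCF, PU.1 and the E-box CAGGTG, the last at 25.9% of weak and 27.5% of shared strict regions. All motifs were searched on both strands, and the words for PU.1 and ETS differ only in their first base and cannot match at the same position of a strand. A match does not show which protein binds, and PU.1 and other ETS factors cannot be told apart by these words.

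**Figure D4:**
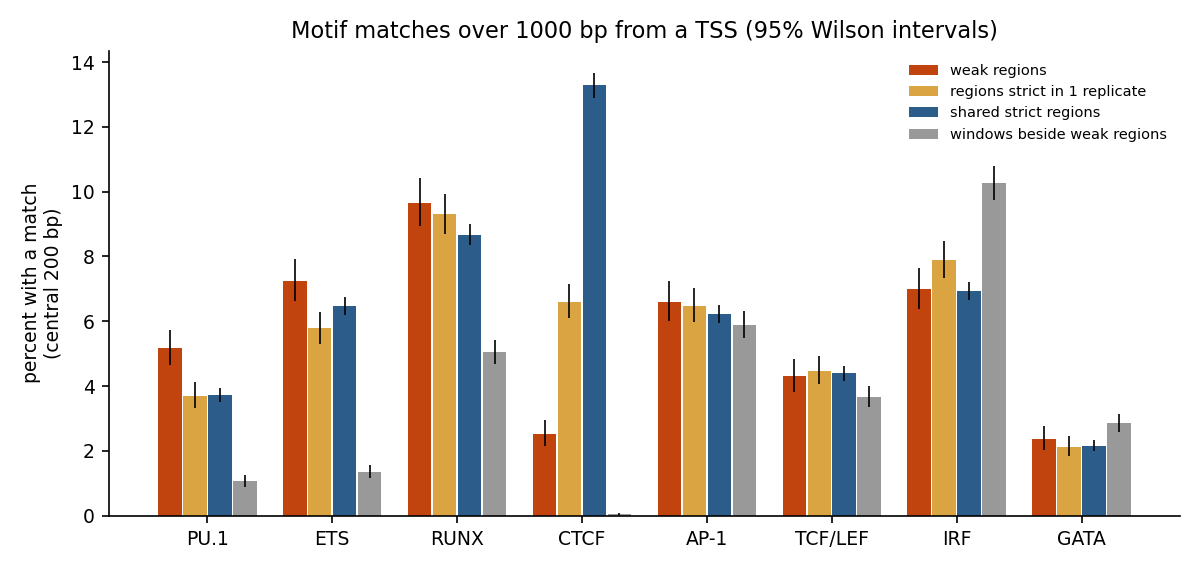
Percent of regions over 1000 bp from a TSS with a motif match in the central 200 bp, for weak regions, regions strict in 1 replicate, shared strict regions and windows beside weak regions, with 95% Wilson intervals. CTCF matched 2.52% of weak and 13.3% of shared strict regions, and PU.1 matched 5.16% of weak and 3.72% of shared strict regions.

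The other T cell motifs were about as frequent in weak as in shared strict regions away from promoters. ETS, searched as CAGGAAGT, matched 7.26% (6.63 to 7.93%) of weak and 6.47% (6.19 to 6.75%) of shared strict regions, against 1.35% of the windows. RUNX, searched as TGTGGTT and named after its values were seen, matched 9.66% (8.95 to 10.4%) of weak and 8.67% (8.35 to 8.99%) of shared strict regions, against 5.04% of the windows. Over all regions, promoters included, the ratio of weak regions to windows was highest for CTCF (51.4), the promoter form of the ETS site, CCGGAAGT (8.66), ETS (4.80), SP/KLF, a GC box of general promoter factors, searched as GGGGCGGGG (4.24), and PU.1 (4.18). It was lowest for IRF, the interferon response element, searched as AAANNGAAA (0.627), SOX as ACAATGG (0.673) and the octamer of POU factors, ATGCAAAT (0.692). The windows were richer in A and T, and the ratios were not adjusted for it. They were also chosen to overlap no peak, which leaves out accessible sites. The CTCF ratio rests on matches in only 6 windows (0.0415%, 0.0190 to 0.0906%).

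Base composition was set equal to look at PU.1 and CTCF once more. Among regions away from promoters with a GC content of 50 to 55%, PU.1 matched 6.04% (5.12 to 7.10%) of 2220 weak regions, 4.46% (4.07 to 4.87%) of 10279 shared strict regions and 1.52% of the windows. Between 40 and 45% GC it matched 5.88% (4.10 to 8.37%) of 476 weak and 1.81% (1.35 to 2.43%) of shared strict regions. In the other 3 bands between 40 and 65% GC the share was also higher in weak regions, but the intervals overlapped. There PU.1 matched 4.90% (3.97 to 6.03%) of weak and 3.62% (3.22 to 4.06%) of shared strict regions between 45 and 50%, 4.43% (3.43 to 5.71%) of weak and 4.02% (3.57 to 4.53%) of shared strict regions between 55 and 60%, and 3.57% (2.05 to 6.14%) of weak and 2.97% (2.30 to 3.82%) of shared strict regions between 60 and 65%. CTCF was lower in weak regions in all 5 bands of GC content between 40 and 65%, for instance 2.25% against 13.2% of shared strict regions between 50 and 55%. Among shared strict regions of all places, PU.1 matches were found in 3.64% of the lowest score quartile and 2.46% of the highest, and CTCF matches in 7.55% of the lowest and 5.48% of the highest, with 12.4% in the third.

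Fewer motif matches lay in footprints of both replicates in weak than in shared strict regions, and this held for every motif searched. E-box CAGGTG matches, for instance, did so in 2.73% of cases in weak and 24.4% in shared strict regions. Weak regions held fewer and shorter footprints, which by itself favours a lower share for any word. The shares were not adjusted for this or for score, and whether sites of particular factors differed beyond it was not tested. CTCF matches overlapped a footprint in both replicates in 57 of 171 cases in weak regions (33.3%, 26.7 to 40.7%), against 4510 of 4668 in shared strict regions (96.6%). In the replicates taken singly, 38.6% of weak CTCF matches lay in a footprint in replicate 1 and 69.0% in replicate 2. RUNX matches did so in both replicates in 5.53% of cases in weak and 27.7% in shared strict regions, ETS matches in 4.98% of weak and 20.2% of shared strict, and PU.1 matches in 3.12% (12 of 385) of weak and 15.6% of shared strict. The 373 weak regions with a PU.1 match had median scores of 0.430 in replicate 1 and 0.407 in replicate 2, near those of the other weak regions (0.452 in replicate 1 and 0.419 in replicate 2), and held a footprint in both replicates as often (48.0% and 48.3%). Of them, 11 held at least 2 PU.1 matches, and the single weak region with at least 3 lay in Itgax, described below.

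Weak regions replaced a strict promoter peak at few genes. Of 21938 protein-coding genes, 312 (1.42%) had a weak region and no strict peak of either replicate near any TSS, which is 3.71% of the 8411 genes without a strict promoter peak. The highest mean scores among them were at Cracr2b, a regulator of store-operated calcium entry (1.23 ± 0.329, SD, n = 2, as for the genes that follow), whose region lay 3946 bp inside the gene at an internal TSS, and Il2ra. The Cracr2b region was 54 bp from that TSS and 9 bp from the TSS of the processed transcript Gm10575. Il2ra encodes CD25, a receptor chain that marks a stage of early T cell precursors and regulatory T cells. Its weak region at chr2:11642379-11642665, centred 285 bp upstream of the TSS, scored 1.47 in replicate 1 and 0.754 in replicate 2 and held footprints in both. The lowest FDR in that region was 0.00105 in replicate 1 and 0.0347 in replicate 2. Next came the homeobox gene Lhx9 (1.10 ± 0.337), Sap25 (1.04 ± 0.141), the protease gene Tmprss4 (1.02 ± 0.213), Gm11172 (1.01 ± 0.169) and Sec1 (0.978 ± 0.231). The regions at Lhx9 and Gm11172 were centred 1118 and 1004 bp from the TSS, so that by centre they were intronic and intergenic. The neuronal tubulin gene Tubb3 (0.973 ± 0.122), Alox5ap, which serves leukotriene synthesis in myeloid cells (0.940 ± 0.315), and Gipr, an incretin receptor gene (0.920 ± 0.218), completed the highest 10. The 2 replicates differed most at Il2ra, where replicate 1 was higher.

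Marker genes of minor thymic cell types were counted in 16 lists of 224 different genes. Of these, 6 genes (2.68%, 1.23 to 5.72%) had a weak promoter region and no strict peak, against 1.42% of all protein-coding genes, so that the interval holds the background. With 1 replicate alone, where strict peaks of that replicate were the only ones left out, the marker genes stood above the background. The share was then 9.82% (6.58 to 14.4%) of the 224 genes in replicate 2, against 4.55% of all protein-coding genes, and 8.04% (5.14 to 12.3%) in replicate 1, against 4.20%. With both replicates, the 6 genes were 4.38% of the 137 marker genes without a strict promoter peak, against 3.71% of all such genes. Such genes, the only ones that can have a weak promoter region alone, were 137 of the 224 marker genes but 8411 of all 21938. With 1 replicate alone, the share among genes without a strict promoter peak was not worked out, so the excess may reflect this make-up of the lists. The 6 genes belonged to 6 lists, 1 gene each, and the other 10 lists had none. None of the 28 T cell genes and none of the 16 housekeeping genes had such a region, since all of them had a strict promoter peak. Among genes of other organs, 0 of 16 hepatocyte genes and 2 of 16 neuron genes had one.

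Of the 6 marker genes, Gzma had the highest weak promoter region. The region at chr13:113100961-113101280, centred 140 bp upstream of the TSS, scored 0.867 in replicate 1 and 0.924 in replicate 2 and lay 64780 bp from the nearest shared strict region. No shared strict region lay within 50000 bp of the gene, and 3 weak regions did. Its lowest FDR was 0.0296 in replicate 1 and 0.00212 in replicate 2. Itgax encodes CD11c of dendritic cells. Its weak region at chr7:128133717-128133907 scored 0.452 in replicate 1 and 0.413 in replicate 2 and lay 4265 bp inside the gene, over an exon, so that it counts as a promoter region only through an internal TSS 994 bp downstream. This region held 3 PU.1 matches between bases 128133841 and 128133877, of which 1 overlapped a footprint in replicate 1 and another in replicate 2. Tal1, a regulator of blood stem and erythroid cells, had a weak region 114 bp upstream of a TSS and 898 bp past its first one, at 0.511 in replicate 1 and 0.444 in replicate 2.

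The other 3 of the 6 are stromal and glandular genes. Pax1, a transcription factor of the thymic epithelium, had one 634 bp past its TSS and close to the antisense gene AI646519, at 0.437 in replicate 1 and 0.523 in replicate 2. It had the lowest FDR of the 6 in replicate 1, 0.00127, beside 0.00160 in replicate 2. Twist1, a mesenchymal transcription factor, had a region of 79% GC at 0.311 in replicate 1 and 0.395 in replicate 2. Casr, the calcium-sensing receptor of the parathyroid, which lies beside the thymus, had a region of 0.222 in replicate 1 and 0.213 in replicate 2, below the first quartile of all weak regions. No shared strict region lay within 50000 bp of Twist1 or Casr. The neuronal genes Tubb3 (1.06 in replicate 1 and 0.887 in replicate 2) and Scn1a (0.364 ± 0.0508, SD, n = 2) are on a list of another organ, and Scn1a lay between Pax1 and Twist1.

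Over 50000 bp around TSSs, the marker genes of minor cell types stood near the background. A weak region lay in that reach of 42.9% (36.6 to 49.4%) of the 224 genes, against 41.8% of all protein-coding genes. Weak regions made up 11.5% of the weak and shared strict regions in reach of these genes, and 10.5% over all genes. By list, the share of genes with a weak region in reach ran from 16.7% (adipocytes, 2 of 12) to 55.6% (endothelium, 10 of 18), and the Wilson interval of every one of the 16 lists held the background. For the 28 T cell genes the share was 64.3% (45.8 to 79.3%), and for the housekeeping genes 62.5% (38.6 to 81.5%). T cell genes also had more strict regions, with a median of 13 against 5 over all genes, and weak regions made up 8.45% of their regions.

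**Figure D5:**
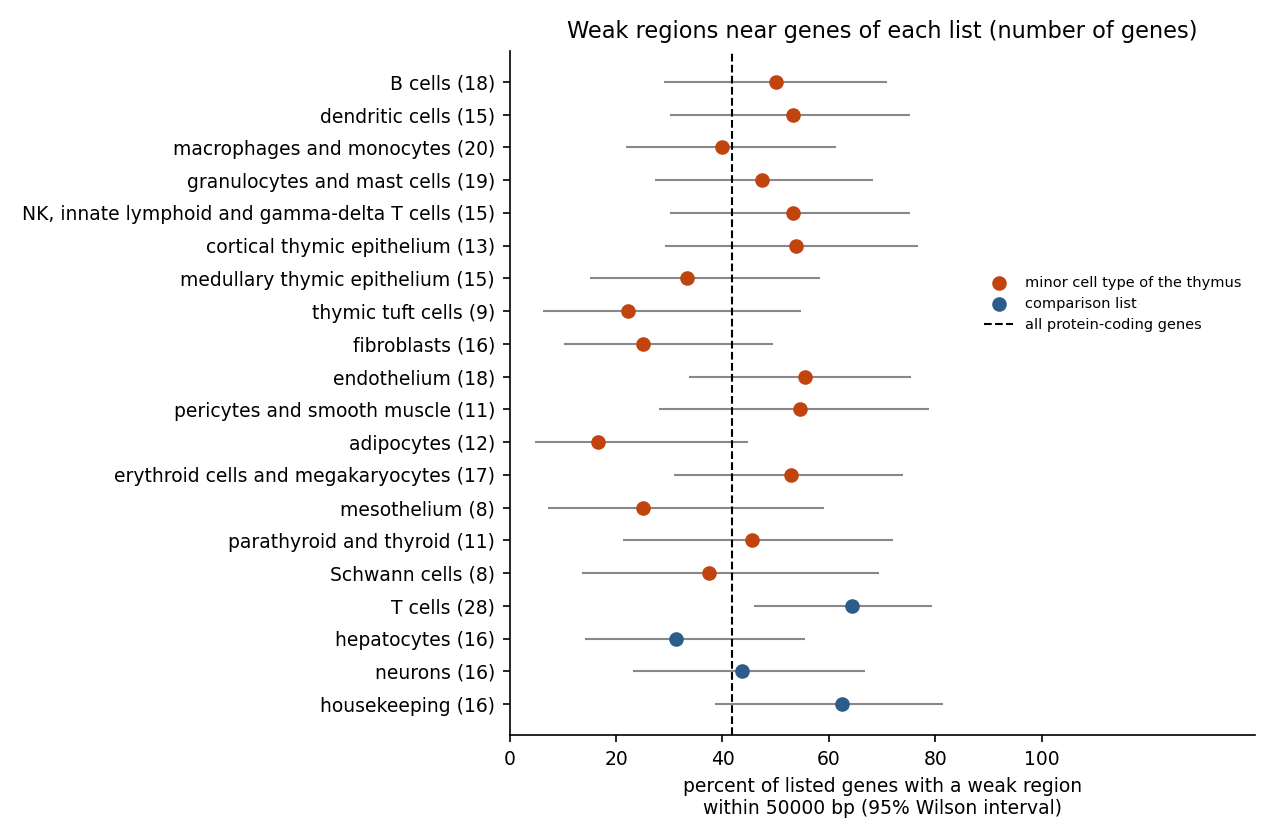
Percent of genes of each list with a weak region within 50000 bp of a TSS (points), with 95% Wilson intervals, for 16 minor cell types of the thymus and 4 comparison lists, and the value over all protein-coding genes (dashed line, 41.8%). The interval of every minor list crosses the dashed line, and that of the 28 T cell genes, at 64.3%, lies above it.

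Within the immune lists, single genes had up to 4 weak regions in reach. The comparison lists reached as many, with 4 at the housekeeping genes Rpl13a and Rps18 and 5 at Rbfox3 and 4 at Camk2a of the neuron list. Among macrophage and monocyte genes, Itgam, which encodes CD11b, and the Fc receptor gene Fcgr1 each had 4 weak regions in reach, beside 8 shared strict regions at Itgam and 15 at Fcgr1. Among NK, innate lymphoid and gamma-delta T cell genes, Klrb1c, which encodes the NK1.1 receptor, and Tbx21, the regulator T-bet, had 3 each. Weak regions made up 19.3% of the regions around that list, the highest of the 16. The Schwann cell list was close to it at 19.1%, and all genes stood at 10.5%. Of the dendritic cell genes, Tcf4, a regulator of plasmacytoid cells, had 3 and Zbtb46 had 2. Of the B cell genes, the kinase gene Blk and the receptor chain gene Cd79b had 2 each. Of the granulocyte and mast cell genes, the lactoferrin gene Ltf had 3 and the chemokine receptor gene Cxcr2 had 2, while 1 of the 19 genes of the list, Cxcr2, had a strict promoter peak.

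Among stromal and other genes the numbers were similar. Psmb11, the thymoproteasome subunit of the cortical epithelium, had 3 weak regions. In the medullary epithelium list, Aire, the regulator of tissue antigens, had 3 and Cldn3 had 2. Egfl7 had 3 and Cdh5, the cadherin of endothelial junctions, had 2. Trpm5, the channel of tuft cells, had 2 and Avil 1. Col1a1 and Pi16 of fibroblasts had 2 each, as did Cnn1 and Tagln of smooth muscle and Ucp1 of brown fat, while Cidea had 1. Epor and Gata1 of the erythroid list, Msln and Upk3b of the mesothelium and Gcm2 and Pax8 of the parathyroid and thyroid had 1 each. Mbp, the myelin basic protein gene, had 11, the most of all protein-coding genes. A region within reach of a TSS need not act on that gene, and neighbouring genes share regions.

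Mbp had 12 annotated TSSs, and long genes with many TSSs were also among those that followed it. Rere and Sipa1l1 had 9 weak regions each, Tanc1 8, and Abtb2, Cd28, Cuedc1, Dmbt1, Foxp1 and Itpr2 7 each. Cd28 encodes a costimulatory receptor of T cells and Foxp1 a transcription factor of naive T cells. Shared strict regions outnumbered weak ones at 8 of these 10 genes, as at Rere with 27, while Cd28 had 7 of each and Tanc1 had 7 shared strict regions. Dmbt1 was the only one of the 10 without a strict promoter peak. In the T cell list, Ets1 had 6 weak regions in reach, the highest of them at 1.26, beside 29 shared strict regions, and Tcf7 had 5, the highest at 0.642, beside 36.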

How the data were processed

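Per the labels, the interval files that the authors deposited for the 2 samples are on mm10. Each peak in the deposited lists carries a signal value of unstated scale. The FDR tracks that the authors deposited hold q-values below 0.05 and leave out other stretches. Every deposited footprint has the score 0.01, and positions alone were used. Which aligner, peak caller and footprint tool were run is not given in the sources used here, and the depth is unknown.

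The looser list of a sample was the peak list with more entries, 91754 in replicate 1 and 100264 in replicate 2; the strict lists had 63832 and 67929. Overlap meant at least 1 bp, on autosomes, X and Y. Annotation was GENCODE M21, with sequence from GRCm38.p6 and repeats as soft-masked there. Shares carry 95% Wilson intervals, which cover counting error only. Windows beside weak regions overlapped no looser peak. Members, 20 gene lists and 29 motifs were chosen with earlier results of these data known. Named genes were, per list, up to 4 with the highest weak promoter region without a strict peak and up to 2 more by weak regions within 50000 bp, then the first 10 of all genes by each measure. Also named were the 10 highest and 5 lowest weak regions, the 5 lowest shared strict regions, and the 5 highest and 3 lowest motif ratios. Some genes that meet this rule are not reported here. The overlap, footprint and motif steps were tested on simulated data. Tables were made with pandas 2.3.3 and numpy 2.4.6 in Python 3.11.15, intervals with scipy 1.17.1 and figures with matplotlib 3.10.9.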

Additional observations from a re-analysis of the deposited data

How the results depend on the processing

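The number of weak regions followed the rule: 4981 with 50% reciprocal overlap, 3294 with an FDR of at most 0.01 in both replicates, and 28984 to 33192 when 1 replicate alone was used. The share near a TSS was 20.4% with reciprocal overlap, 18.5% with no strict peak within 500 bp, 13.4% and 36.6% with windows of 500 and 2500 bp, and 21.9 to 24.6% with 1 replicate alone. The mean of the median scores was 0.466 at the stricter FDR and 0.383 to 0.415 with 1 replicate. The share with a footprint in both replicates was 55.9% with reciprocal overlap, 62.0% at the stricter FDR, 51.8% away from strict peaks, 87.1% for a footprint in at least 1 replicate and 54.3 to 62.7% with 1 replicate alone, where both were no longer asked for. Mean GC content was 52.5% with reciprocal overlap, 54.7% in the central 100 bp and 52.5% with either replicate alone. CTCF matched 2.65% with reciprocal overlap, 2.63% away from strict peaks and 2.32 to 2.71% with 1 replicate.

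PU.1 matched 5.22% with reciprocal overlap, 5.41% away from strict peaks, 2.71% in the central 100 bp, and 3.28 to 3.43% with 1 replicate alone. Away from promoters it matched 5.53% with reciprocal overlap, 5.35% with an FDR of at most 0.01 in both replicates and 5.74% away from strict peaks. With 1 replicate alone it matched 3.64 to 3.89% there, near the 3.72% of shared strict regions. In the central 100 bp it matched 3.02% (2.62 to 3.48%) of weak and 2.13% (1.97 to 2.29%) of shared strict regions. With 1 replicate alone, 2 choices change at once, since neither a peak in the other replicate is asked for nor its strict peaks left out. Regions strict in 1 replicate, which are in both looser lists, matched in 3.70%, and the cause was not tested.

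For marker genes, the share with a weak promoter region alone was 0.893% at the stricter FDR and 8.04 to 9.82% with 1 replicate alone. Over all genes these shares were 0.602% at the stricter FDR and 4.20 to 4.55% with 1 replicate alone. With either replicate alone, the value of all genes lay below the Wilson interval of the marker genes. These shares were not taken among genes without a strict promoter peak, which were a larger part of the marker lists than of all genes. The share with a weak region in reach was 29.0% with reciprocal overlap, 19.2% at the stricter FDR, 33.9% away from strict peaks, 25.4% and 63.8% within 25000 and 100000 bp, and 79.9 to 85.7% with 1 replicate alone. All genes stood at 29.9%, 21.8%, 33.0%, 28.7%, 58.8% and 74.3 to 79.0% in the same order. The marker genes' interval held the value of all genes under these alternatives except with replicate 2 alone, where it was 80.5 to 89.7%. With reciprocal overlap, Casr, Itgax and Pax1 kept a weak promoter region, and at the stricter FDR, Pax1 and Tal1 did. With only the 5′ end of a gene as TSS, Itgax dropped out and the B cell gene Cd22 entered. Of looser peaks of replicate 1 without a strict peak, 48.9% overlapped any peak of replicate 2, and 34.1% did with 50% reciprocal overlap. No paired analysis was possible because the series has 1 group.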
